A study of Mus musculus with 4 samples.

Results

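The insulin-like growth factor (IGF) genes described here are the 8 genes Igf1, Igf1r, Igfbp2, Igfbp3, Igfbp4, Igfbp5, Igfbp6 and Igfbp7, chosen by name as a ligand, its receptor and 6 IGF binding proteins. All 8 have a gene label among the 33465 labels of the deposited table of 37996 features. Of these 8 labels, 6 could be tied to 1 feature of the table, and 2, Igfbp2 and Igfbp3, could not and are treated as not measured. The values come from 4 RNA-seq libraries of primary cells sorted by FACS from C57BL/6 mice: 2 libraries from fetal liver and 2 from adult bone marrow. The series concerns a stem cell niche that lies beside portal vessels before birth, and the 2 organs were compared to find genes that their sorted cells express at different levels. The gestational age, the age of the adults, the surface markers or reporters of the sort, and any pooling of animals do not appear in the sources used here. The labels do not state that libraries of one organ are from different animals, and the p-values below reflect the spread among 4 libraries that may differ for technical reasons alone.

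IGF-1 is a secreted growth factor that acts through the IGF-1 receptor, a receptor tyrosine kinase that signals through PI3K, AKT and mTOR and through the RAS pathway. The binding proteins hold IGFs in the fluid between cells and in blood, protect them from degradation and limit or deliver them to the receptor, and secreted proteases release the ligand by cutting them. In the adult, hepatocytes under growth hormone make most circulating IGF-1, while in the fetus IGF-2 is the more abundant ligand and stromal cells of many tissues make IGF-1 for local use.

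The promoters of the 4 members that were called higher in fetal liver are shown. Each is the 250 bases before the gene's start in the RefSeq table for GRCm38.p6, on the gene's strand. All 8 members matched that table. Capitals mark exact matches, on either strand, to the TATA box, searched as TATAAA, the CCAAT box, searched by those letters, the GC box, searched as GGGCGG, or the FOXO core, searched as GTAAACA. No match overlapped another. The authors' build is mm9, so these coordinates belong to the RefSeq table and not to the deposited values. The windows are chr10:87860861-87861110 on the plus strand for Igf1, chr11:99040994-99041243 on the plus strand for Igfbp4, chr1:72874866-72875115 on the minus strand for Igfbp5 and chr5:77408046-77408295 on the minus strand for Igfbp7.
Igf1: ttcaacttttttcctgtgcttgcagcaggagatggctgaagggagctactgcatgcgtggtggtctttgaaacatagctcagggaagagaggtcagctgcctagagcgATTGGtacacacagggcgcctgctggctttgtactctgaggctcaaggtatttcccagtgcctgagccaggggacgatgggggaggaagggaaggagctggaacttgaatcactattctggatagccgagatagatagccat
Igfbp4: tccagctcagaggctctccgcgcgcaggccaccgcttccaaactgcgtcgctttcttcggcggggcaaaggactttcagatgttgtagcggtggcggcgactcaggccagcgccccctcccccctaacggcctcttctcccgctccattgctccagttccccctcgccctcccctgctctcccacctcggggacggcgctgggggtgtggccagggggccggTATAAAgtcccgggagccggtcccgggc
Igfbp5: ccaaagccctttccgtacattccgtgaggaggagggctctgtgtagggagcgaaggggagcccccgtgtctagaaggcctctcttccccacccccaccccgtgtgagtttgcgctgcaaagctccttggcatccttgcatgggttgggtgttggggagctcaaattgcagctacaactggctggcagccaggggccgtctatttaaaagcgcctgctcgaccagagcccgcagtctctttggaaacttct
Igfbp7: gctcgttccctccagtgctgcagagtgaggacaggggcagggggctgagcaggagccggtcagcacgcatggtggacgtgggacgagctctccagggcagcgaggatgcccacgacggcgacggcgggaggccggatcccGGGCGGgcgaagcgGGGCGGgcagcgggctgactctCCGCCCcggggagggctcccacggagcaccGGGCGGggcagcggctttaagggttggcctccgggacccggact
The 4 windows did not share a motif of this search. The Igf1 window holds 1 CCAAT box, read on the minus strand, whose outermost base lies 142 bases before the start. The Igfbp4 window holds 1 TATA box that begins 28 bases before the start. The Igfbp7 window holds 4 GC boxes, which begin 44, 74, 96 and 110 bases before the start. The Igfbp5 window holds none of the 4 motifs, and the FOXO core was found in no window of the 8 genes. Of 32851 RefSeq windows of the same length, 12.4% hold TATAAA, 33.8% CCAAT, 32.7% GGGCGG and 3.17% GTAAACA. The GC content was 52.8% for Igf1, 69.2% for Igfbp4, 58.8% for Igfbp5 and 74% for Igfbp7, against a median of 52.4% over those windows. A match is a description of the letters and not a site of binding.

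The authors deposited for each feature the mean of size-factor-scaled read counts in each group, called normalized reads here. These means were split into the whole reads of the 2 libraries of each group, which are named deeper and shallower for their depth, since the replicate number of neither is known. The fetal liver libraries held 2590921 and 884204 recovered reads and the bone marrow libraries 858720 and 223361. A typical tested feature (the median) was covered by 16 and 5 reads in fetal liver and by 13 and 3 in bone marrow, which leaves few reads behind low bone marrow values. A feature was called where the authors' adjusted p was under 0.05. By this rule 1467 of 35605 tested features were higher in fetal liver (4.12%) and 46 were lower (0.129%). Among the 12515 genes tied to 1 feature with a mean of at least 10 normalized reads, the share called higher was 9.62%, and among all 19349 genes tied to 1 feature it was 6.24%. The median log2 ratio over the 30884 features with reads in both groups was -0.19.

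Of the 6 measured IGF genes, 4 were called higher in fetal liver and none lower, where 4.12% of all tested features and 9.62% of tied genes at a mean of at least 10 were called higher. The called genes were the ligand gene Igf1 and the binding protein genes Igfbp4, Igfbp5 and Igfbp7, with ratios of the group means between 7.13 and 17.9. The receptor gene Igf1r and the binding protein gene Igfbp6 were not called. Limma on the recovered reads, with Benjamini-Hochberg adjustment over 16502 features at a mean of at least 10, called the same 4 genes higher and none lower among the 5 members it tested. By that test 19.2% of features were higher and 2.87% lower, and 20.7% of the genes tied to 1 feature were higher. The log2 ratios of the 6 genes ran from -2.75 to 4.16 with a median of 3.01.

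**Figure D1:**
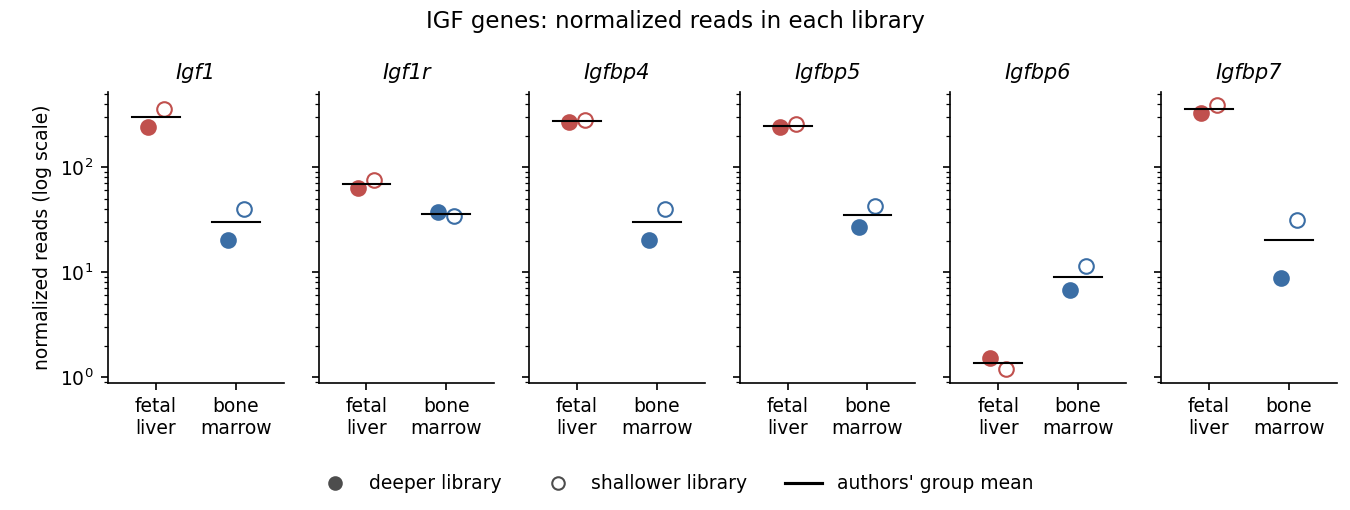
Normalized reads (log scale) of the 6 measured IGF genes in each library, fetal liver in red at left and bone marrow in blue at right; filled points are the deeper and open points the shallower library, and lines are the authors' group means. Igf1, Igfbp4, Igfbp5 and Igfbp7 stand between 242 and 391 normalized reads in fetal liver and between 8.78 and 42.9 in bone marrow, and Igfbp6 is the gene with lower values in fetal liver.

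Igf1, which encodes the ligand IGF-1, had 242 and 361 normalized reads in the deeper and shallower fetal liver libraries, against 20.3 and 40.0 in the deeper and shallower bone marrow libraries. These are 639 and 304 whole reads in fetal liver and 30 and 14 in bone marrow. Every fetal liver value was above every bone marrow value, and the shallower library was the higher in each group. The authors' means were 302 in fetal liver and 30.1 in bone marrow, a ratio of 10.01 in the authors' deposited table (adjusted p = 2.28e-05). The limma log2 fold change was 3.33 ± 0.44 (SE, 2 libraries per group), with an adjusted p of 7.52e-05. Igf1os, which is named as the opposite strand RNA of Igf1, had 12.5 and 2.38 normalized reads in fetal liver and 9.46 and 2.86 in bone marrow and was not called (adjusted p = 1). Whether reads were counted by strand is not stated in what was available here, so reads of an overlapping antisense RNA cannot be told apart from those of Igf1.

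Igf1r, which encodes the receptor of IGF-1, had 63.7 and 76.1 normalized reads in the fetal liver libraries, against 37.2 and 34.3 in the bone marrow libraries. The groups did not overlap, but the difference did not pass either test. The ratio of the means was 1.96 in the authors' deposited table (adjusted p = 0.853), and limma gave a log2 fold change of 0.94 ± 0.40 (SE, 2 libraries per group) with an adjusted p of 0.1003. Among features with a mean of at least 10, 37.4% had both fetal liver libraries above both bone marrow libraries and 26.4% had both below. The label of Igf1r was tied to its feature at a probability of 0.968, just above the required 0.95, and the other candidate feature had means of 9.52 in fetal liver and 21.5 in bone marrow. The direction of Igf1r therefore rests on the placement of its label, which itself used the ratio of each candidate feature.

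The binding protein genes fell into different levels of change. Igfbp4 encodes a binding protein that restrains IGF action until the protease PAPP-A cuts it. It had 269 and 279 normalized reads in the fetal liver libraries, against 20.3 and 40.0 in the bone marrow libraries. The fetal liver libraries were close to each other and both were above bone marrow. The ratio was 9.10 in the authors' deposited table (adjusted p = 5.68e-07), and limma gave a log2 fold change of 3.22 ± 0.43 (SE, 2 libraries per group, adjusted p = 7.65e-05). In bone marrow, Igfbp4 and Igf1 had equal whole reads, 30 and 14.

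Igfbp5 encodes a binding protein that also attaches to the extracellular matrix. It had 242 and 257 normalized reads in the fetal liver libraries, against 27.0 and 42.9 in the bone marrow libraries. The groups did not overlap, and the deeper fetal liver library was within 1 whole read of its count for Igf1, 638 against 639. The ratio was 7.13 in the authors' deposited table (adjusted p = 1.95e-05), and limma gave a log2 fold change of 2.83 ± 0.41 (SE, 2 libraries per group, adjusted p = 0.000151).

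Igfbp7 encodes a secreted relative of the family that binds IGFs more weakly and is found in vessel walls. It had 330 and 391 normalized reads in the fetal liver libraries, against 8.78 and 31.5 in the bone marrow libraries. The fetal liver libraries were far above both bone marrow libraries, which held 13 and 11 whole reads. The ratio was 17.9 in the authors' deposited table (adjusted p = 0.000874), and limma gave a log2 fold change of 4.34 ± 0.50 (SE, 2 libraries per group, adjusted p = 3.15e-05). Its ratio depended on the bone marrow libraries, since leaving out the deeper of them gave 11.5 and leaving out the shallower gave 41.1. For Igf1, Igfbp4 and Igfbp5 no left-out library moved the ratio by more than 1.5 times.

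Igfbp6 encodes a binding protein that prefers IGF-2 to IGF-1. It had 1.52 and 1.19 normalized reads in the fetal liver libraries, against 6.76 and 11.4 in the bone marrow libraries. Both fetal liver libraries were below both bone marrow libraries, but they held only 4 and 1 whole reads, against 10 and 4 in bone marrow. The ratio of 0.149 in the authors' deposited table was not called (adjusted p = 0.884), and the gene lay below the minimum mean of the limma test. With 10 normalized reads added to each mean the log2 ratio was -0.75, against -2.75 without.

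**Figure D2:**
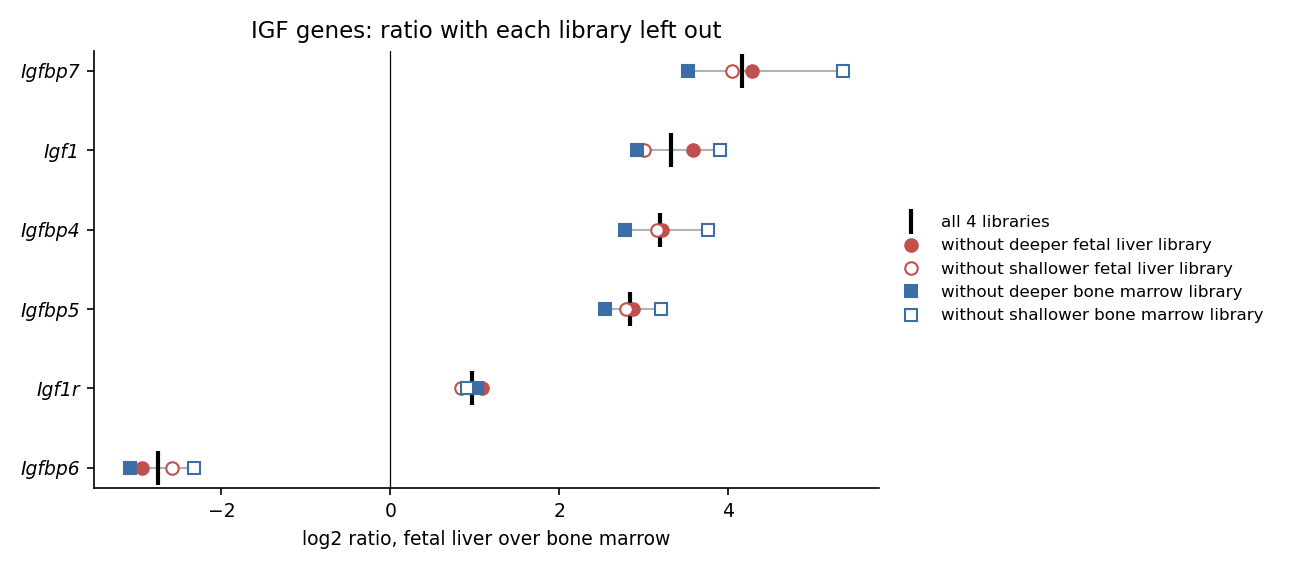
Log2 ratio of fetal liver over bone marrow (horizontal axis) for each measured IGF gene with all 4 libraries (black bars) and with each library left out (symbols as in the key). The order Igfbp7, Igf1, Igfbp4, Igfbp5, Igf1r, Igfbp6 runs down the page, and Igfbp7 has the widest range, from 3.52 to 5.36, while no gene crosses 0.

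Per length, Igfbp7 was the most abundant of these mRNAs in both groups. In fetal liver it had 298 normalized reads per kilobase of exon, followed by Igfbp4 at 62.1, Igfbp5 at 41.5, Igf1 at 30.5, Igf1r at 4.16 and Igfbp6 at 1.22. No neighbours in that order overlapped between the 2 libraries. In bone marrow the levels were closer together, with Igfbp7 at 16.6 normalized reads per kilobase, Igfbp6 at 8.18, Igfbp4 at 6.83, Igfbp5 at 5.82, Igf1 at 3.04 and Igf1r at 2.13. There only Igfbp5 and Igf1 were separated by the spread of the libraries, and every other pair of neighbours overlapped. Igfbp6 stood last in fetal liver and second in bone marrow. Exonic lengths ran from 1112 bases for Igfbp6 to 16791 for Igf1r in GENCODE M21, which need not be the authors' annotation. The fetal liver level of Igf1r per length was below that of Igf1 in both libraries, with 3.79 and 4.53 for Igf1r and 24.4 and 36.5 for Igf1.

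**Figure D3:**
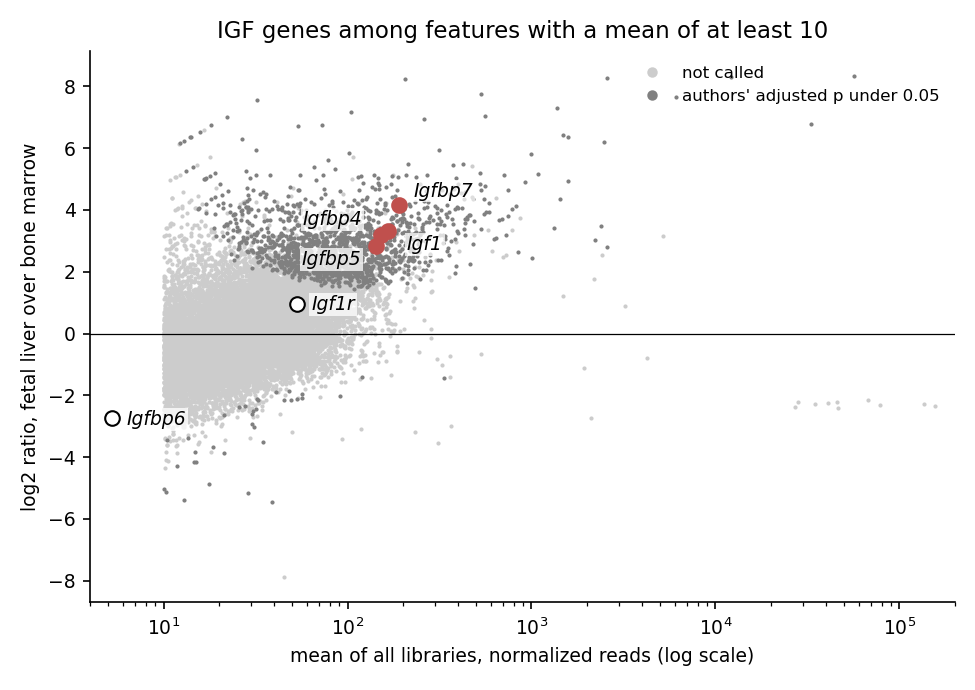
Log2 ratio of fetal liver over bone marrow against the mean of all libraries in normalized reads (log scale); small points are the 16507 features with a mean of at least 10 that fall inside the axis, with 10 more lying to its right, dark where called, and large points are the IGF genes, red where called. Igf1, Igfbp4, Igfbp5 and Igfbp7 lie among the called features at log2 ratios of 2.83 to 4.16, Igf1r lies among features not called, and Igfbp6 lies left of the minimum mean.

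Ranked among features averaging 10 normalized reads or more, the log2 ratio of Igfbp7 was at percentile 98.9, Igf1 at 96.9, Igfbp4 at 96.4, Igfbp5 at 94.8 and Igf1r at 71.6. Of the 4 called genes, Igf1, Igfbp4 and Igfbp5 were close in their pattern over the 4 libraries, and Igfbp7 stood further off. The distance between the centred log2 values of 2 genes was 0.39 for Igf1 and Igfbp4, 0.44 for Igfbp4 and Igfbp5 and 0.64 for Igf1 and Igfbp5. Igfbp7 was 1.18 from Igf1, the nearest member to it, 1.25 from Igfbp4 and 1.69 from Igfbp5. Igfbp5 and Igf1r, which was not called, were 1.97 apart. All 4 genes were called higher, so they share the group difference by that choice. Many other genes were closer to each of the 4 called genes, as only 4 libraries enter and most of the pattern is the difference between the groups. Of 12506 genes compared, the nearest to Igf1 were Rac1 at a distance of 0.15, Rps15a at 0.16 and Txndc17 at 0.17. The nearest to Igfbp4 were Crtap at 0.083, Rbx1 at 0.11 and Uqcrh at 0.13. The nearest to Igfbp5 were Wsb1 at 0.036, Psmb7 at 0.042 and 2700060E02Rik at 0.074, and the nearest to Igfbp7 were Cdc42 at 0.12, Sh3bgrl at 0.21 and Rps9 at 0.22.

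Some IGF genes stand side by side on their chromosomes. Of the 10 other neighbours of members that could be measured, the authors' adjusted p called 3 higher, none lower and 7 not. The share called higher was 6.24% among all genes tied to 1 feature and 4.12% among all tested features. The 3 called neighbours are all described below, but only some of the 7 not called. Whether neighbouring genes change together was not tested. In the RefSeq gene order Igfbp2 and Igfbp5 are neighbours on chromosome 1, and Igfbp1 and Igfbp3 are neighbours on chromosome 11. Next to Igfbp4, elsewhere on chromosome 11, lies Top2a, the DNA topoisomerase gene of dividing cells, which was called higher with means of 440 in fetal liver and 88.4 in bone marrow (adjusted p = 0.000639, from the authors' deposited table). Tns4, on the other side of Igfbp4, was not called, with means of 17.9 in fetal liver and 23.6 in bone marrow (adjusted p = 1, from the authors' deposited table). Rpl37a, a ribosomal protein gene beside Igfbp2, was called higher, with means of 201 in fetal liver and 11.6 in bone marrow (adjusted p = 3.52e-05, from the authors' deposited table). Polr2b, an RNA polymerase II subunit gene beside Igfbp7, was also called higher, with means of 193 in fetal liver and 24.5 in bone marrow (adjusted p = 0.000754, from the authors' deposited table). Pmch, a neuropeptide precursor gene beside Igf1, was not called, with means of 6.49 in fetal liver and 3.20 in bone marrow and an adjusted p of 1, as read from the authors' deposited table.

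The other genes of the pathway, a list of 43, had 33 members tied to 1 feature. Of these 33, all with a mean of at least 10, the authors' adjusted p called 5 higher in fetal liver and none lower, against 9.62% called higher among tied genes at such a mean and 4.12% higher and 0.129% lower among all tested features. The median log2 ratio of the 33 was 0.42, with 19 above 0 and 14 below, against medians of -0.19 over all features with reads in both groups and 0.11 over the 16517 of them with a mean of at least 10. Limma called 9 of the 33 higher and none lower, against 20.7% higher among tied genes and 19.2% higher and 2.87% lower among all features it tested. Of the genes called by the authors' adjusted p, Adamts1, Grb10, Eif4ebp1 and Ghr are described here. In 14 of the 33, of which 13 were not called, leaving out 1 library moved the ratio of fetal liver over bone marrow by more than 1.5 times, a check chosen after seeing the data.

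**Figure D4:**
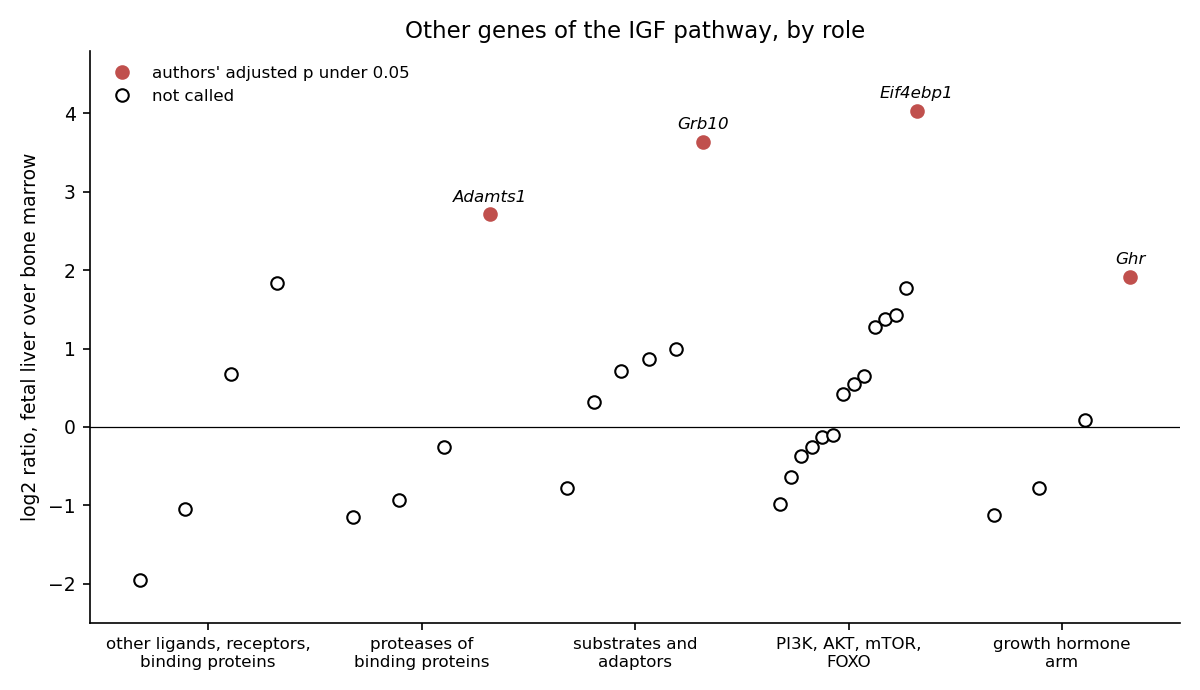
Log2 ratio of fetal liver over bone marrow for 32 measured genes of the IGF pathway list, grouped by role and ordered by value within a role; filled red points are called by the authors' adjusted p and open points are not. The 4 called genes lie at log2 ratios of 1.92 to 4.04, and the other 28 spread on both sides of 0.

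Of the other ligands, receptors and binding proteins of the list, none of the 4 measured was called by the authors' adjusted p. Igf2r, which encodes the receptor that clears IGF-2, had 237 and 521 normalized reads in the fetal liver libraries, against 128 and 82.9 in the bone marrow libraries. The groups did not overlap, but the fetal liver libraries stood far apart. The ratio of 3.59 was not called in the authors' deposited table (adjusted p = 0.536), while limma gave a log2 fold change of 1.76 ± 0.52 (SE, 2 libraries per group) with an adjusted p of 0.0232. Without the shallower fetal liver library the ratio was 2.24. Insr, the insulin receptor gene, had means of 56.0 in fetal liver and 35.2 in bone marrow (adjusted p = 1, from the authors' deposited table). Igfals, which encodes the third partner of the circulating complex of IGF and binding protein, had 3.41 and 8.32 normalized reads in fetal liver, against 19.6 and 25.7 in bone marrow. The ratio was 0.259, and 0.150 without the shallower fetal liver library. Its groups did not overlap, and it was not called (adjusted p = 0.470, from the authors' deposited table). The label of Igf2, the ligand gene of the fetus, could not be tied to 1 feature, so no level is given for it.

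Of the proteases and protease inhibitors, 1 of 4 measured was called. Adamts1, which encodes a secreted metalloprotease of the extracellular matrix, had 221 and 213 normalized reads in fetal liver, against 31.8 and 34.3 in bone marrow. The libraries of each group were close together and the groups did not overlap. The ratio was 6.56 in the authors' deposited table (adjusted p = 0.000189), and limma gave a log2 fold change of 2.68 ± 0.39 (SE, 2 libraries per group). Pappa2, which encodes a protease that cuts IGF binding proteins, had means of 25.6 in fetal liver and 30.7 in bone marrow (adjusted p = 1, from the authors' deposited table). Its ratio of 0.834 became 2.24 without the deeper bone marrow library and 0.512 without the shallower. Stc2, which encodes an inhibitor of such proteases, had 11.8 in fetal liver and 26.2 in bone marrow (adjusted p = 1, from the authors' deposited table). The ratio of Stc2 was 0.451, and it was 0.136 without the deeper fetal liver library and 0.766 without the shallower.

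Of the receptor substrates and adaptors, 1 of 6 measured was called. Grb10, an imprinted gene whose product binds the IGF-1 and insulin receptors and restrains their signal, had 705 and 1105 normalized reads in fetal liver, against 62.2 and 82.9 in bone marrow. All fetal liver values were above all bone marrow values, and it had the highest fetal liver mean among the measured genes of the list. The ratio was 12.5 in the authors' deposited table (adjusted p = 9.67e-10), and limma gave a log2 fold change of 3.60 ± 0.54 (SE, 2 libraries per group). Irs2, which encodes a docking protein of the receptors, had means of 19.4 in fetal liver and 33.4 in bone marrow, and Grb2, an adaptor gene, had 26.2 in fetal liver and 16.01 in bone marrow. The ratio of Irs2 was 0.580, and 0.341 without the shallower fetal liver library. Neither was called (adjusted p = 0.881 and 1, from the authors' deposited table).

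Of the PI3K, AKT, mTOR and FOXO genes, 2 of 15 measured were called. Eif4ebp1, which encodes a repressor of translation that mTOR inactivates, had 70.9 and 86.8 normalized reads in fetal liver, against 6.76 and 2.86 in bone marrow, where the shallower library held 1 whole read. The ratio was 16.4 in the authors' deposited table (adjusted p = 0.000561), which became 27.6 when the deeper bone marrow library was left out and 11.7 when the shallower was. The authors' adjusted p did not call the kinase genes Akt1, Mtor and Rps6kb1. Akt1 had means of 111 in fetal liver and 32.6 in bone marrow (adjusted p = 0.0914, from the authors' deposited table), and Mtor had 53.6 in fetal liver and 106 in bone marrow (adjusted p = 0.921, from the authors' deposited table). The ratio of Mtor was 0.505, and 0.303 without the deeper fetal liver library. Rps6kb1, which encodes the S6 kinase that mTOR activates, had means of 141 in fetal liver and 52.4 in bone marrow (adjusted p = 0.149, from the authors' deposited table). Limma called it higher, at a log2 fold change of 1.36 ± 0.41 (SE, 2 libraries per group, adjusted p = 0.0257). For Akt1, limma gave an adjusted p of 0.00431 at a log2 fold change of 1.73 ± 0.39 (SE, 2 libraries per group). The list holds Pdk1, which in this annotation is a pyruvate dehydrogenase kinase gene and not the PI3K-dependent kinase, and it was not called.

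Of the growth hormone arm, 1 of 4 measured was called. Ghr, the growth hormone receptor gene, had 117 and 195 normalized reads in fetal liver, against 31.1 and 51.5 in bone marrow. The groups did not overlap, and the ratio was 3.78 in the authors' deposited table (adjusted p = 0.0318), and limma gave a log2 fold change of 1.89 ± 0.43 (SE, 2 libraries per group). Jak2, the kinase gene of that receptor, had means of 41.1 in fetal liver and 38.8 in bone marrow. Stat5b, which encodes a transcription factor that growth hormone activates, had 18.4 in fetal liver and 31.7 in bone marrow. Socs2, a feedback inhibitor gene, had 31.3 in fetal liver and 68.0 in bone marrow, and each of these 3 had an adjusted p of 1, as read from the authors' deposited table. Socs2 stood at 33.1 and 103 normalized reads in the bone marrow libraries, and its ratio of 0.460 was 0.945 without the shallower of them and 0.304 without the deeper. Without the deeper fetal liver library the ratio of Jak2 was 0.644, against 1.06 with all libraries, and that of Stat5b was 0.338, against 0.581.

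Markers of several cell types differed between the groups together with the IGF genes; called here means by the authors' adjusted p unless limma is named. The 6 measured of 7 hepatoblast markers summed to 2214 and 2621 normalized reads in fetal liver and 130 and 114 in bone marrow, and 4 were called higher, 5 by limma. Dlk1, an imprinted gene, made up 1620 and 1962 of the fetal liver sums, and Hnf4a, which was not called, had means of 20.3 in fetal liver and 27.6 in bone marrow. The 8 measured of 10 pericyte, mural and stellate markers summed to 1456 and 3229 in fetal liver and 195 and 240 in bone marrow, and 4 were called higher, 6 by limma. Acta2, called by limma only, made up 267 and 1578 of the fetal liver sums, and Tagln 149 and 688. Des, which was not called, had means of 13.5 in fetal liver and 27.9 in bone marrow. The 8 marrow stromal markers, all measured, summed to 808 and 1056 in fetal liver and 311 and 355 in bone marrow, and 2 were called higher, 4 by limma. Cxcl12 made up 265 and 369 of the fetal liver sums. Lepr and Ebf3 had lower means in fetal liver, 22.3 and 22.5, than in bone marrow, 36.4 and 28.4, and neither was called. The 5 measured of 8 endothelial markers summed to 223 and 150 in fetal liver and 164 and 112 in bone marrow, with none called. Limma called 1 higher, Emcn, with means of 99.7 in fetal liver and 25.03 in bone marrow (limma adjusted p = 0.00646). Emcn made up 136 and 63.0 of the fetal liver sums. Pecam1 and Lyve1 had lower means in fetal liver, 8.82 and 12.3, than in bone marrow, 29.1 and 20.7. Kdr and Tek had means of 32.5 and 33.0 in fetal liver and 30.7 and 32.4 in bone marrow. The 6 osteoblast markers, all measured, summed to 62.9 and 287 in fetal liver and 290 and 2542 in bone marrow, with none called, while limma called 3 lower, Bglap (limma adjusted p = 0.0197), Alpl (0.00437) and Dmp1 (0.00995). The 6 measured of 7 neutrophil markers summed to 23.9 and 41.6 in fetal liver and 376 and 100 in bone marrow, with 1 called lower, 2 by limma. The 5 macrophage markers, all measured, summed to 74.3 and 46.4 in fetal liver and 120 and 60.05 in bone marrow, and the 3 measured of 6 erythroid markers to 31.5 and 58.3 in fetal liver and 33.1 and 11.4 in bone marrow. Ptprc, the gene of the leukocyte antigen CD45, had 12.5 and 20.2 in fetal liver and 29.1 and 20.02 in bone marrow. No measured marker was at 0 in either group. The part of these cell types in the differences of Igf1, Igfbp4, Igfbp5 and Igfbp7 was not tested, and in sorted bulk samples more cells of a type and more RNA per cell cannot be told apart.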

How the data were processed

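Sorted cells were turned into cDNA libraries with a SMARTer kit for low input, per the labels' protocols. The authors used GSNAP, HTSeq and DESeq, and the build mm9, per the submitters' processing notes, which name no versions. Per the file headers, the deposited table holds 1 normalized signal per organ, in which read counts were divided by size factors and averaged over libraries. The deposited fold divides the fetal liver mean by the bone marrow mean. The deposited p-value comes with an adjusted p-value, and the column names are those the authors' tool DESeq writes. A p-value was present for 35605 of 37996 features, and the other 2391 had no reads in either organ.

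The gene labels stood closed up at the top of the table, with 4531 features without a label at its end, so they did not stand beside their own values. They were placed again by a hidden Markov model that used the order of labels and the order of identifiers where p-values tie (error rate 0.001). It also used a LightGBM 4.6.0 score of gene structure (GENCODE M21 on GRCm38) against level and group difference, bounded at 4 and trained in 5 folds. That score took both group means of a feature and the log2 ratio between them, so the ratios given here entered the placement. That equal p-values are sorted by identifier is assumed. Of 32237 labels of tested features, 19349 (60%) were tied to 1 feature at a probability of at least 0.95, and every value given for a gene is taken there and not from the row that carries its label. On simulated labels 99.2% of placed labels were right, and 99.9% of those of called features. These are upper estimates, because the simulated structures came from the placement itself. The simulation tied 50.8% of its labels, against 60% of the real ones, and averaged its score over fewer trained models. Its rates therefore need not hold for the real placement.

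Group means were split into whole reads of 2 libraries per group. 1 read was worth 0.379 and 1.19 normalized reads in the deeper and shallower fetal liver libraries, and 0.676 and 2.86 in the bone marrow libraries. All 37973 fetal liver and 37976 bone marrow features with a mean of at most 10000 had 1 solution. A wrong step solved 15.7% and 20.3%, but it was tried only on a sample of features with low means above 0. Means as high as those of the called members in fetal liver lay outside that sample, so the 2 rates are not over the same features. Limma 3.58.1 in R 4.3.3 was fitted to log2(normalized reads + 1) with its trend option, for features with a mean of at least 10, which understates the change of low genes. Alternatives were other thresholds, pseudocounts, filters, scalings and placements, and each library left out. The members and lists were chosen with earlier results of these data known. Named genes are all members, every called gene of the pathway list (1 of them is not reported here), up to 10 others of it by role, and the 3 genes nearest to each called member by Euclidean distance of centred log2 values. Neighbours, antisense RNAs and a few more genes of the list were added after their values were seen.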

Additional observations from a re-analysis of the deposited data

How the results depend on the processing

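Of the 6 measured IGF genes, the number called higher stayed at 4 with limma, when the deposited p-values were adjusted only over features averaging 10 or more, and at thresholds of 0.01 and 0.1. It was 3 of 4 at a placement probability of at least 0.99, and 5 of 8 both with labels at their most probable feature and with labels as they stand, where Igfbp3 was the gene added. None was lower in any of these. For the pathway list 9 genes were higher with limma, against 5 by the authors' adjusted p, and 4 to 6 under the other settings. Limma called 4 members higher and 0 lower under each pseudocount, filter and scaling tried, and 4 to 4 higher and 0 to 0 lower with each library left out, where a lone library was assumed to vary like the other group. Of 54 alternative log2 ratios of the members, 36 lay within 1 SD of the value reported and 18 moved further. The SD is that of log2(normalized reads + 1) within groups, pooled over both groups. The 36 include the setting with labels at their most probable feature, which for the 6 measured genes is the reported value itself. With library totals as scaling, the median of all features with a mean of at least 10 moved by -0.73 (log2), 10.5% of features were called higher and 18.5% lower by limma, and the log2 ratio was 2.61 for Igf1, 2.48 for Igfbp4, 2.12 for Igfbp5, 3.47 for Igfbp7, 0.23 for Igf1r and -3.46 for Igfbp6. With the label as it stands, Igf1r, not called, had a log2 ratio of -0.80. With each library left out the log2 ratio ran from 2.91 to 3.90 for Igf1, 2.78 to 3.76 for Igfbp4, 2.54 to 3.21 for Igfbp5, 3.52 to 5.36 for Igfbp7, 0.83 to 1.09 for Igf1r and -3.08 to -2.32 for Igfbp6. The authors' p-values could not be recomputed without a library. No paired analysis was possible because the deposited columns carry no replicate numbers and the groups share only the number 2. Depth limits Igfbp6 most, with 4 and 1 whole reads in the fetal liver libraries.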
